A study of Mus musculus with 6 samples.

Results

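The proteasome genes of the mouse heart were followed in 3 WT mice and 3 Mc4r KO mice at 12 weeks of age. A gene was taken when the deposited table gave it as protein-coding and its name began with Psma, Psmb, Psmc, Psmd, Psme, Psmf or Psmg followed by a digit. This rule took 50 genes of the 54532 rows of the table, of which 22046 are protein-coding. A further 4 rows with such names carry another biotype and were left out. Of the 50 genes, 49 encode subunits, activators, regulators or assembly chaperones of the proteasome, and Psmc3ip, a partner of recombinases in meiosis, is no proteasome gene and came in by its name. The Mc4r KO mice were homozygous for a deletion of the melanocortin-4 receptor gene, and the WT mice were their littermates from matings of heterozygous parents. All mice were on the C57B/6/N background and no treatment is named. For the tissue, the labels give heart as the source and muscle in the title, while the text of the study speaks of left ventricle and of male mice. Each mouse gave 1 library of polyadenylated RNA, and the FPKM of every gene in every library were deposited. These are fragments per kilobase of the gene, divided by a factor fixed for each library. That factor was not in proportion to the reads counted on genes. Scaling the libraries anew by the median ratio of their genes gave a factor of 1 in each, so the deposited values were already on that scale.

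The proteasome is the protease that degrades proteins tagged with ubiquitin. Its 20S core is a barrel of stacked rings, with α subunits outside and β subunits inside, and only a few of the β subunits cut peptide bonds. The 19S regulatory particle caps the barrel, where its ATPases unfold the substrate and its other subunits bind and remove ubiquitin. Interferon exchanges the constitutive catalytic subunits for those of the immunoproteasome, which makes peptides for presentation to T cells. Cells that lack proteasome activity raise the transcription of most subunits together through the factor Nfe2l1, also known as Nrf1 or TCF11. In the heart, the ubiquitin-proteasome system removes damaged and surplus contractile proteins.

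Between 14691076 and 16047003 reads were counted on genes per library, as recovered from the FPKM and the gene lengths. Mc4r itself held 2 reads in WT replicate 3 and 0 in the other libraries, so that its level cannot check the labels in this tissue. Limma compared Mc4r KO with WT mice on log2(FPKM + 0.1) for the 18035 genes whose mean FPKM reached 0.1. A log2 fold change is always Mc4r KO minus WT on that scale, which understates the change of low genes, and adjusted p-values are two-sided and cover all genes tested. A gene was called where the adjusted p fell under 0.05 and the log2 fold change exceeded 0.75 in size, which 83 genes met. WT replicate 3 stood apart from the other WT libraries in several ways. Its 4 atrial markers Myl7, Myl4, Sln and Nppa summed to an FPKM of 747, against 28.6 and 95.2 in WT replicates 1 and 2 and 6.29 to 136 in the Mc4r KO libraries. The summed FPKM of 7 cardiomyocyte markers lay between 12650 and 13630 in WT mice and between 15640 and 17110 in Mc4r KO mice. Most of that rise was Actc1, with means of 5178 and 7539, while Pln alone had a log2 fold change below 0, at -0.33. The 4 fibroblast markers summed to 150 to 157 in WT mice and 115 to 126 in Mc4r KO mice, most of it Dcn. Of these 4, Dcn and Pdgfra were lower at an unadjusted p under 0.05, while Col1a1 and Col1a2 had log2 fold changes of 0.44 and 0.03. The 5 erythrocyte markers summed to 859 to 6344 in WT mice and 620 to 1651 in Mc4r KO mice, with 3 lower at an unadjusted p under 0.05. The 4 endothelial markers overlapped between the groups. Of the 7 skeletal muscle markers the myosins Myh1, Myh2 and Myh4 were at or near 0 in every library, while the list summed to 51.3 to 239 in WT mice and 234 to 556 in Mc4r KO mice, nearly all of it Acta1. The mitochondrial chromosome held 59.3%, 57.4% and 47.1% of the summed FPKM in WT replicates 1, 2 and 3, and 43.0% to 46.6% in Mc4r KO mice. WT replicate 3 thus lay close to the Mc4r KO mice in this share. In bulk RNA, fewer cells of a type and less RNA per cell cannot be told apart.

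No proteasome gene was called between the groups, but in the scaling of the deposited FPKM the genes of the 20S core and most of those of the 19S particle lay slightly higher in Mc4r KO mice, a lean that turned for 21 of the 49 tested genes in another scaling given below. Of the 50 genes, 49 were tested, and the β subunit Psmb11, which belongs to the thymus, had 0 reads in all 6 libraries. By limma, 0 of the 49 were called higher, where 0.316% of all genes tested were, and 0 were called lower, against 0.144%. Limma voom on the recovered reads also called 0 of the 49, with 12 at an unadjusted p under 0.05 (24.5%, all higher, where 13.02% of all genes were higher and 8.11% lower). In the main fit, the adjusted p of the 49 genes ran from 0.0854 to 0.94. An unadjusted p under 0.05 was reached by 9 genes higher in Mc4r KO mice (18.4% of 49), against 12.0% of all genes tested, and by 0 genes lower, against 8.83%. Without any model, 19 genes (38.8%) had all 3 Mc4r KO values above all 3 WT values, where 14.1% of all genes did. The reverse held for 2 genes (4.08%), the germline subunit Psma8 and the regulator Psmf1, against 12.4% of all genes. These shares of all genes include low genes, while 37 proteasome genes had a mean FPKM of at least 10. A filter at a mean FPKM of 1 left 46 proteasome genes. Of these, 8 (17.4%) were higher at an unadjusted p under 0.05, nearly the same share as of all genes so filtered. Lower were 0, against 10.7% of all genes. Under this filter 18 of the 46 separated higher, where 19.6% of all genes did. The log2 fold change was above 0 in 37 of 49 genes (75.5%), against 48.8% of all genes tested, with a median of 0.12 over the proteasome genes and -0.01 over all genes. The 49 genes were measured in the same 6 libraries and are not independent of each other.

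**Figure D1:**
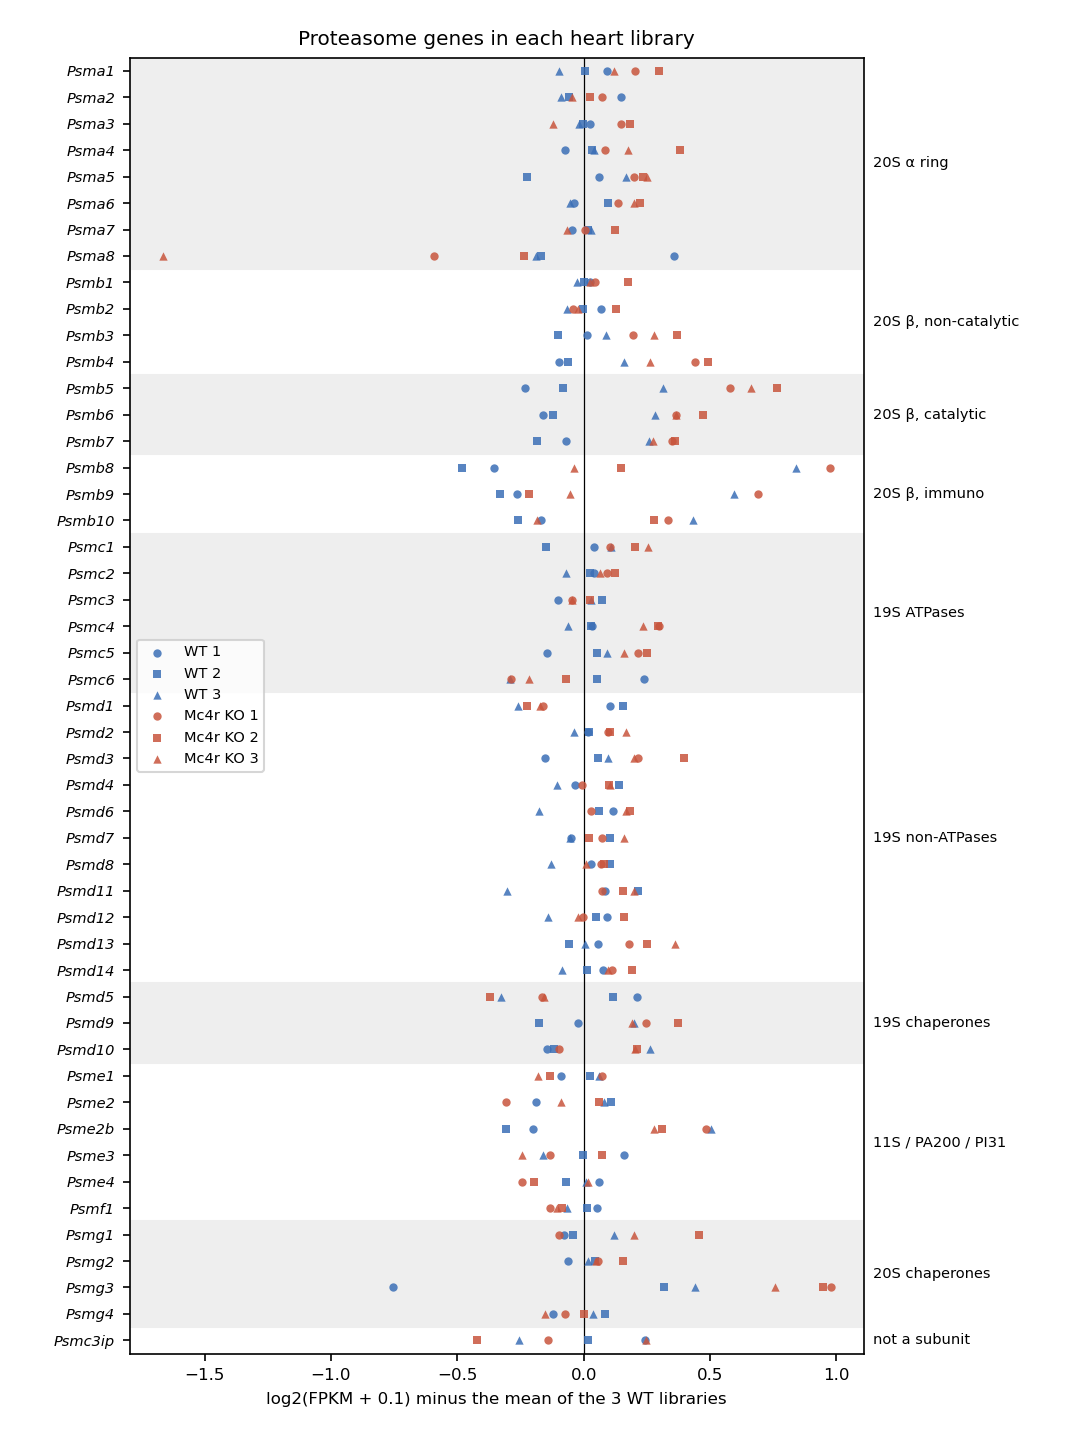
Level of each of the 49 tested proteasome genes in each library, as log2(FPKM + 0.1) minus the mean of the 3 WT libraries, on the horizontal axis. Genes are ordered by the part of the proteasome, blue symbols are WT mice and red symbols Mc4r KO mice, with the shape giving the replicate number. In this scaling, the 3 red symbols lie to the right of the 3 blue ones for 19 genes, among them Psmb3 to Psmb7, and to the left for Psma8 and Psmf1.

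The 3 constitutive catalytic subunits of the β ring had a median log2 fold change of 0.40, above that of the 7 α subunits (0.19), the 4 other β subunits (0.18) and the 3 immunoproteasome subunits (0.14). This order did not hold for the α subunits with the GC percentage of each library's clean reads in the fit, a term that largely follows the groups, as given below. In that fit Psmb5, Psmb6 and Psmb7 had 0.31, 0.09 and 0.06, while the α subunits ran from 0.01 for Psma7 to 0.35 for Psma1. With the trend with transcript GC content removed instead, the medians were 0.48 for the catalytic and 0.23 for the α subunits. Psmb5 (ENSMUSG00000022193, chr14:54614119-54618022, minus strand, mm10) encodes β5, the subunit with chymotrypsin-like activity. Its FPKM was 45.1, 49.9 and 65.9 in the WT mice, in the order of replicates 1 to 3, and 79.2, 89.9 and 83.9 in the Mc4r KO mice in the same order, which holds for all values below. The groups did not overlap, and WT replicate 3 stood between the other WT mice and the Mc4r KO mice. The means of 53.6 ± 10.9 (SD, n = 3) and 84.3 ± 5.38 (SD, n = 3) differed by a log2 fold change of 0.67 with an SE of 0.15 (95% interval 0.33 to 1.01), a fold of 1.57, with an adjusted p of 0.0854 in limma. Without WT replicate 3 the log2 fold change was 0.83 with an adjusted p of 0.00849, and Psmb5 was then the only proteasome gene called. Psmb5 also had the highest mean FPKM of the 50 genes, at 69.0.

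The annotation limits the Psmb5 count. Same-strand exons of other annotated genes cover 12.1% of the exons of Psmb5. Of the words of 50 bases in its transcripts, 54.1% also occur in other genes, mainly in the processed pseudogene Gm3375. The reads on Gm3375 were 4, 8 and 14 in WT mice and 24, 27 and 18 in Mc4r KO mice, where Psmb5 itself held 571, 645 and 1009 and then 1105, 1228 and 1210. The pseudogene was thus also higher in every Mc4r KO mouse, at a small share of the reads of Psmb5.

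Psmb6 (ENSMUSG00000018286, chr11:70525367-70527858, plus strand) encodes β1, which cuts after acidic residues. Its FPKM was 32.0, 32.8 and 43.5 in WT mice and 46.1, 49.5 and 46.0 in Mc4r KO mice, without overlap but with WT replicate 3 close to the Mc4r KO mice. The log2 fold change was 0.40 with an SE of 0.13 and an adjusted p of 0.150. Psmb7 (ENSMUSG00000026750, chr2:38588036-38644087, minus strand) encodes β2, which cuts after basic residues. Its FPKM was 18.2, 16.8 and 22.9 in WT mice and 24.4, 24.6 and 23.1 in Mc4r KO mice, so that WT replicate 3 was nearly level with the lowest Mc4r KO mouse. The log2 fold change of Psmb7 was 0.33 with an SE of 0.12 and an adjusted p of 0.196. Exons of Nek6 on the opposite strand cover 11.8% of the exons of Psmb7, and whether strand was used in counting is not given in the sources used here.

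The stretches before the starts of Psmb5 and Psmb6 are shown. Both hold the core of the antioxidant response element, TGACNNNGC, to which Nfe2l1 and Nfe2l2 bind as partners of small Maf proteins. They are the catalytic subunits among the 5 genes with this match, and have the highest log2 fold changes of the 5. The sequences are RefSeq's in the build GRCm38.p6, written 5′ to 3′ on the strand of the gene, and end before the start of transcription that the annotation gives. The first is chr14:54618023-54618115 on the minus strand and the second chr11:70525237-70525356 on the plus strand, and capitals mark the match.
Psmb5: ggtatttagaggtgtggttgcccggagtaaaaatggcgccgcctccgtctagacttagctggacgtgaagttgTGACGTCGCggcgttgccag
Psmb6: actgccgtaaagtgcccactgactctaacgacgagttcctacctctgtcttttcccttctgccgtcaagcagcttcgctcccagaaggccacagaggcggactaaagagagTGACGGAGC
The match lay between 47 and 39 bases before the RefSeq start of Psmb5 and between 9 bases and 1 base before that of Psmb6. Both matches begin with TGACG, which is also the core of the cAMP response element, so that the letters fit either motif.

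RefSeq promoters were found for 42 of the 50 genes, in 45 windows of 250 bases before the start, searched on both strands. TGACNNNGC occurred in 5 of the 45 windows (11.1%), those of Psmb5, Psmb6, Psmc6, Psmd9 and Psmd12, and in 10.2% of 32851 windows over all genes. Of the 5 genes, Psmb5, Psmb6, Psmd9 and Psmd12 had log2 fold changes above 0, at 0.67, 0.40, 0.27 and 0.04, and Psmc6 had one of -0.19. CCAAT, the box bound by NF-Y, occurred in 33.3% of the windows and in 33.8% over all genes. The interferon gamma activated site TTCNNNGAA was found in 4.44% of the windows, among them that of Psmb8, and in 7.02% over all genes. The core of the interferon stimulated response element, GAAANNGAA, was found in 6.67%, against 7.13% over all genes. A match is a match of letters only, and no binding was measured.

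**Figure D2:**
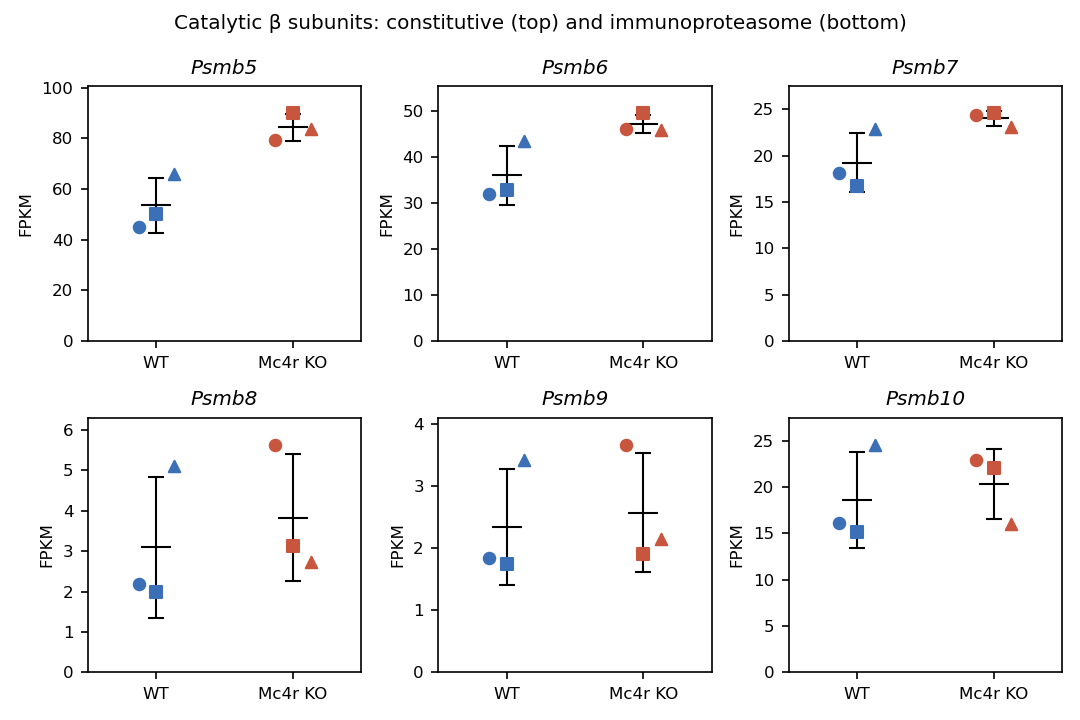
FPKM of the 6 catalytic β subunits in each library, with WT mice in blue and Mc4r KO mice in red, the shape giving the replicate number, and the bar the mean ± SD of 3 mice. In the upper row (Psmb5, Psmb6, Psmb7) all Mc4r KO mice lie above all WT mice, with WT replicate 3 as the highest WT mouse. In the lower row (Psmb8, Psmb9, Psmb10) WT replicate 3 and Mc4r KO replicate 1 lie above the other mice for Psmb8 and Psmb9, and the groups overlap.

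The immunoproteasome subunits did not separate the groups. Psmb8 (ENSMUSG00000024338, chr17:34197721-34201454, plus strand), the β5i subunit that replaces Psmb5, had an FPKM of 2.18, 1.99 and 5.11 in WT mice and 5.63, 3.13 and 2.73 in Mc4r KO mice. Psmb9 (ENSMUSG00000096727, chr17:34181988-34187764, minus strand), the β1i subunit, had 1.84, 1.75 and 3.42 in WT mice and 3.66, 1.91 and 2.15 in Mc4r KO mice. Psmb10 (ENSMUSG00000031897, chr8:105935735-105938444, minus strand), the β2i subunit, had 16.14, 15.15 and 24.55 in WT mice and 22.94, 22.04 and 15.98 in Mc4r KO mice. WT replicate 3 and Mc4r KO replicate 1 were the highest mice of their groups for each of these genes, and each group spanned most of the range of the other. The log2 fold changes were 0.36, 0.14 and 0.14 with SEs of 0.40, 0.32 and 0.21, and the adjusted p-values in limma were 0.644, 0.840 and 0.746. The 95% interval of Psmb8 ran from -0.58 to 1.31, so that these libraries leave a wide range of differences. Leaving out 1 library moved Psmb8 from 0.06 (without Mc4r KO replicate 1) to 0.78 (without WT replicate 3), Psmb9 from -0.13 to 0.44 at the same libraries, and Psmb10 from 0.01 (without WT replicate 2) to 0.36 (without WT replicate 3). The sign of Psmb8, Psmb9 and Psmb10 turned when the GC percentage of each library's clean reads entered the fit. That percentage largely follows the groups, as given below.

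For Tap1 the same mice were high. Tap1, the peptide transporter next to Psmb9 in the genome, had an FPKM of 1.96, 2.06 and 3.57 in WT mice and 4.24, 2.32 and 2.03 in Mc4r KO mice. B2m, the light chain of MHC class I, was high in Mc4r KO replicate 1 alone, with an FPKM of 273, 240 and 235 in WT mice and 424, 195 and 172 in Mc4r KO mice, and is named after its values were seen. Exons of Tap1 cover 5.79% of the exons of Psmb9 on the opposite strand. The 8 leukocyte markers summed to 142, 123 and 172 in WT mice and 173, 147 and 135 in Mc4r KO mice, with WT replicate 3 and Mc4r KO replicate 1 again highest, although most of this sum is Lyz2. Of the 7 markers tested, Cd68, Csf1r and Cd79a had an unadjusted p under 0.05, all lower in Mc4r KO mice (-0.42, -0.37 and -1.36), and Cd68 and Cd79a were lowest in Mc4r KO replicate 1. The part of leukocytes in the levels of the immunoproteasome genes was not tested.

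Within a library, a ratio of subunits does not depend on how the libraries are scaled. The summed FPKM of Psmb8, Psmb9 and Psmb10 over that of Psmb5, Psmb6 and Psmb7 was 0.212, 0.190 and 0.2502 in WT mice and 0.215, 0.165 and 0.136 in Mc4r KO mice. The groups overlapped, and the difference of -0.35 on the log2 scale had an exact permutation p of 0.3 (two-sided), where 3 mice against 3 cannot go below 0.1. The summed FPKM of Psmb5, Psmb6 and Psmb7 over that of the 7 α subunits Psma1 to Psma7 was 0.485, 0.506 and 0.683 in WT mice and 0.703, 0.718 and 0.722 in Mc4r KO mice. These ratios did not overlap, and the Mc4r KO mice lay close together while WT replicate 3 was nearer to them than to the other WT mice. The ratio of the 17 subunits of the 19S particle to the 14 of the constitutive 20S core was 1.05, 1.07 and 0.923 in WT mice and 0.899, 0.869 and 0.927 in Mc4r KO mice, with WT replicate 3 inside the Mc4r KO range. Both latter ratios were formed after the values of single genes were known and are given without a test.

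**Figure D3:**
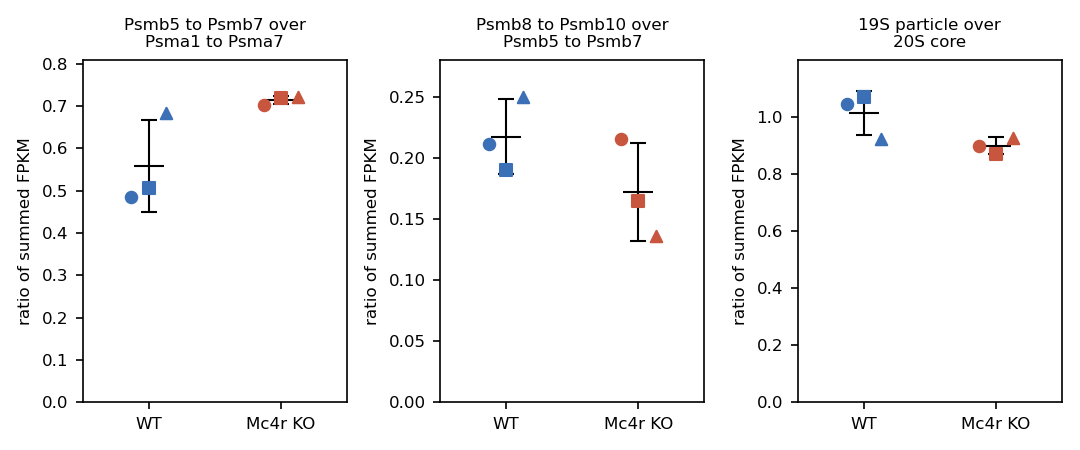
Ratios of summed FPKM within each library, with WT mice in blue, Mc4r KO mice in red, the shape giving the replicate number and the bar the mean ± SD of 3 mice. The constitutive catalytic subunits over the α ring (left) range from 0.485 to 0.683 in WT mice and from 0.703 to 0.722 in Mc4r KO mice, while the immunoproteasome over the constitutive catalytic subunits (middle) and the 19S particle over the 20S core (right) overlap between the groups.

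The 4 non-catalytic β subunits, which complete the inner rings, all had log2 fold changes above 0, although Psmb1 and Psmb2 turned below 0 in the scaling by the sum outside the mitochondria and in quantile normalization. Psmb4, the β7 subunit, had an FPKM of 41.8, 42.8 and 50.1 in WT mice and 60.7, 62.9 and 53.7 in Mc4r KO mice. Its groups did not overlap, and its log2 fold change of 0.40 had an SE of 0.10 and an adjusted p of 0.109. Psmb3, the β3 subunit, had 24.9, 23.0 and 26.2 in WT mice and 28.2, 31.9 and 29.9 in Mc4r KO mice, again without overlap. Its log2 fold change was 0.28 with an SE of 0.09 and an adjusted p of 0.146, and 17.8% of its words of 50 bases occur in other genes. Psmb1 and Psmb2 had log2 fold changes of 0.08 and 0.02, and the groups overlapped for Psmb2. The difference between neighbours of 1 ring therefore ran from 0.02 for Psmb2 to 0.67 for Psmb5.

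The 7 α subunits, which form the outer rings and the gate of the barrel, had log2 fold changes from 0.02 for Psma2 to 0.23 for Psma5, all above 0 except that Psma2, Psma3, Psma6 and Psma7 turned below 0 in both of these scalings. In the main limma fit, 0 of 7 had an unadjusted p under 0.05, with Psma6 at 0.0506 and Psma1 at 0.0510, and their smallest adjusted p was 0.241. Limma voom called 0 of 7 as well, but its unadjusted p was under 0.05 for Psma1 (0.0226), Psma4 (0.0400) and Psma6 (0.0350). The groups did not overlap for 4 of them, Psma1, Psma4, Psma5 and Psma6. Psma6 was the second gene by mean FPKM after Psmb5, at 67.3, while Psma3 was the lowest of the ring at 12.4. The summed FPKM of the ring was 196, 197 and 194 in WT mice and 213, 229 and 212 in Mc4r KO mice, a ratio of the means of 1.11, against 1.43 for the 3 constitutive catalytic subunits and 1.16 for the other 4 β subunits. Psma8, the α subunit of the testis, had the lowest mean FPKM of the 49 tested genes. It held 18, 12 and 14 reads in WT mice and 9, 12 and 3 reads in Mc4r KO mice, or an FPKM of 0.754, 0.494 and 0.486 against 0.343, 0.467 and 0.110. Its log2 fold change was -0.83 with an SE of 0.41 and an adjusted p of 0.303.

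In the ring of 19S ATPases, which unfold substrates and open the gate, 4 of 6 genes had log2 fold changes above 0, of which Psmc1 and Psmc2 turned in the scaling by the sum outside the mitochondria, and 3 did not overlap between the groups. Psmc4, the ATPase Rpt3, had an FPKM of 22.39, 22.37 and 20.96 in WT mice and 26.96, 26.84 and 25.76 in Mc4r KO mice. Both groups were tight, and WT replicate 3 was here the lowest WT mouse, the opposite of its place in Psmb5 to Psmb7. The log2 fold change was 0.27 with an SE of 0.07 and an adjusted p of 0.116. Psmc2 and Psmc5 also separated, with log2 fold changes of 0.09 and 0.21. Psmc1 had 0.19, Psmc3 -0.02 and Psmc6 -0.19, with overlap in each.

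Among the 11 non-ATPase subunits, which bind ubiquitin, remove it and hold the particle together, 10 had log2 fold changes above 0, of which Psmd3 and Psmd13 alone stayed there in the scaling by the sum outside the mitochondria. These 2 genes had an unadjusted p under 0.05. Psmd13, the subunit Rpn9 of the lid, had an FPKM of 14.9, 13.8 and 14.4 in WT mice and 16.3, 17.1 and 18.5 in Mc4r KO mice. Its groups did not overlap, and its log2 fold change of 0.26 had an SE of 0.09 and an adjusted p of 0.153. Psmd3, the subunit Rpn3, had 15.96, 18.46 and 18.95 in WT mice and 20.58, 23.4 and 20.37 in Mc4r KO mice, with a log2 fold change of 0.27, an SE of 0.10 and an adjusted p of 0.200. Psmd2, which holds the base together, and Psmd14, the enzyme that cuts ubiquitin off the substrate, separated the groups as well, with log2 fold changes of 0.12 and 0.13. The ubiquitin receptor Psmd4 had 0.07, and Psmd1 was the only subunit of this group below 0, at -0.19. The other 5, Psmd6, Psmd7, Psmd8, Psmd11 and Psmd12, overlapped between the groups with log2 fold changes from 0.04 to 0.14. The summed FPKM of the 11 genes was 1.07 times as high in Mc4r KO mice as in WT mice, and so was that of the ATPases.

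The activators that can replace the 19S particle did not share the direction of the core. Of the 4 genes of the 11S activator, Psme1, Psme2 and Psme3 had log2 fold changes of -0.08, -0.11 and -0.10 with overlapping groups. Psme2b had 0.36 with an SE of 0.21 and an adjusted p of 0.379, but 69.3% of its words of 50 bases occur in other genes, among them Psme2, so that the reads of these copies are uncertain. Psme4, the nuclear activator PA200, had an FPKM of 44.3, 40.5 and 42.8 in WT mice and 35.9, 37.1 and 43.1 in Mc4r KO mice, a log2 fold change of -0.14. Psmf1, the regulator PI31, had 2.98, 2.90 and 2.74 in WT mice and 2.61, 2.70 and 2.66 in Mc4r KO mice, without overlap and with a log2 fold change of -0.11. Neither reached an unadjusted p under 0.05 in limma, and both are named after their values were seen.

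The assembly chaperones were mostly low and mixed. Psmg3, a chaperone of the α ring, had an FPKM of 0.245, 0.626 and 0.690 in WT mice and 1.05, 1.02 and 0.883 in Mc4r KO mice, from 10 to 34 reads and from 41 to 47 reads. Its log2 fold change was 0.89 with an SE of 0.33 and an adjusted p of 0.196, and WT replicate 1 lay far below the other WT mice. Without WT replicate 1 it was 0.51, below the 0.55 of Psmb5 in the same fit, and with a pseudocount of 1 it was 0.40. Exons of another gene on the same strand cover 9.68% of those of Psmg3. The other 20S chaperones Psmg1, Psmg2 and Psmg4 had log2 fold changes of 0.18, 0.09 and -0.07, and the first and the second turned below 0 in the scaling by the sum outside the mitochondria. The 19S chaperones Psmd5, Psmd9 and Psmd10 had -0.23, 0.27 and 0.10, each with overlapping groups, and opposite-strand exons cover 25.5% of those of Psmd9. Psmd10 turned to -0.088 in the scaling by the sum outside the mitochondria. With the GC percentage of each library's clean reads in the fit, Psmd10 had -0.18 and Psmd5 0.12. Psmc3ip had a log2 fold change of -0.10 at a mean FPKM of 0.886.

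**Figure D4:**
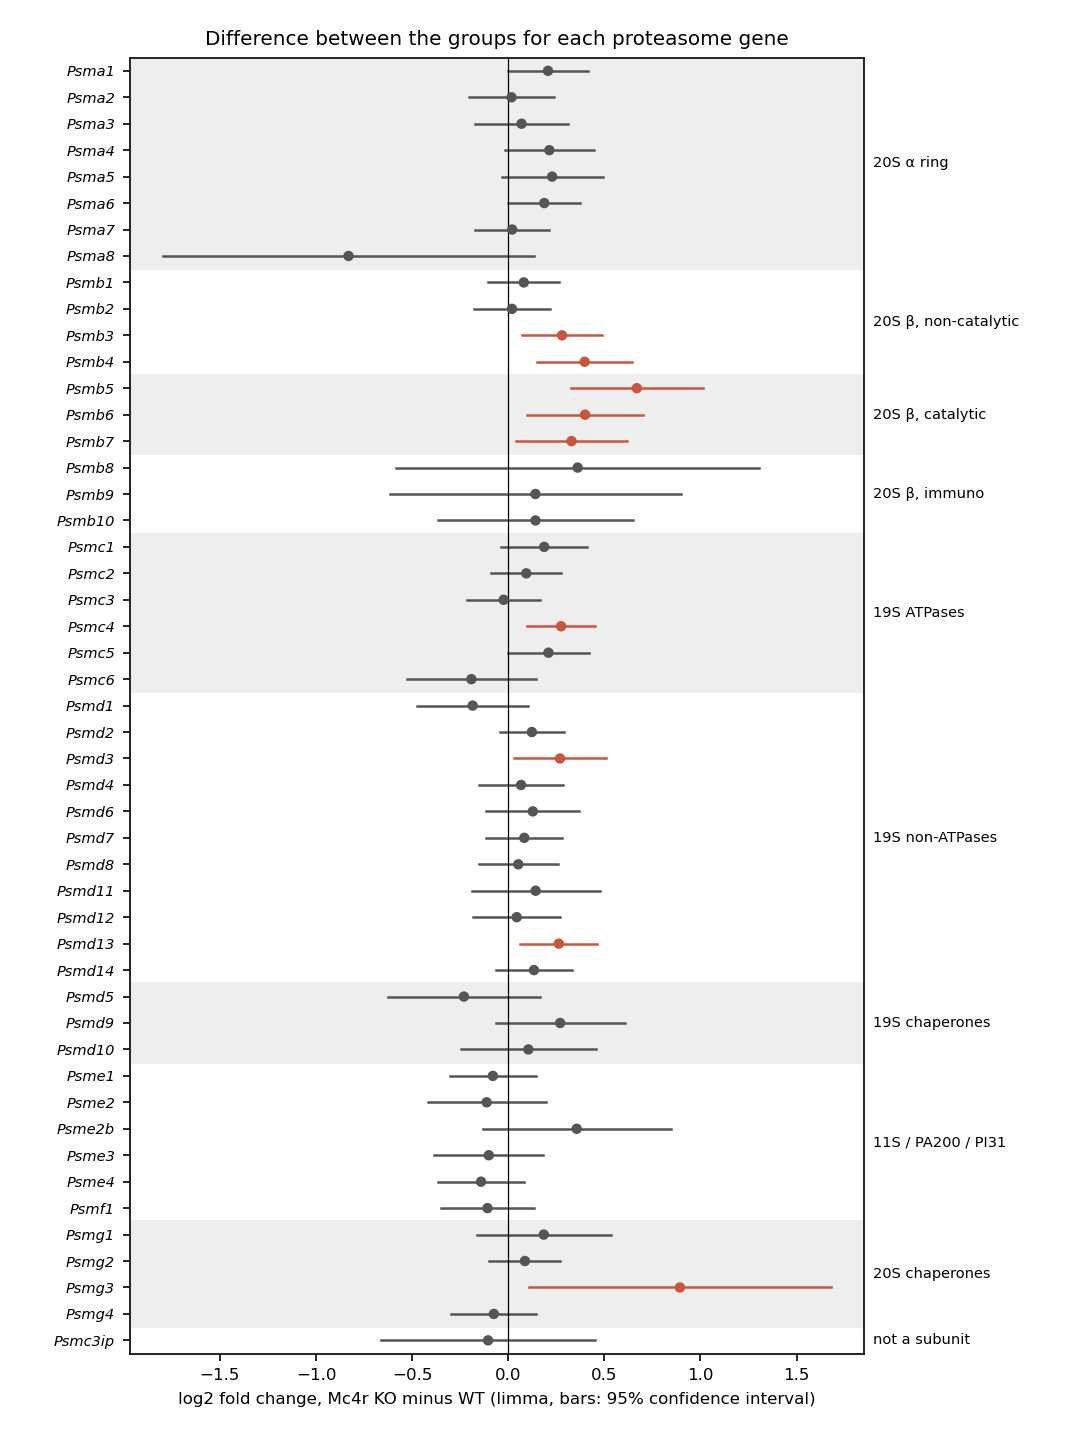
Log2 fold change (Mc4r KO minus WT) of each of the 49 tested proteasome genes with its 95% confidence interval from limma, ordered by the part of the proteasome. Red marks the 9 genes with an unadjusted p under 0.05, of which 5 are β subunits, and the intervals of Psma8, Psmb8, Psmb9 and Psmg3 are the widest.

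The direction of 21 of the 49 tested genes depended on how the libraries were scaled. These 21 turned from above to below 0 when libraries were scaled to the sum outside the mitochondrial chromosome, which left 16 of the 37 genes above 0, while the 12 genes below 0 stayed there. Quantile normalization turned 13 genes. The FPKM summed over the 50 genes were 1075, 1088 and 1125 in WT mice and 1198, 1263 and 1195 in Mc4r KO mice. As a share of all FPKM outside the mitochondrial chromosome the same genes held 0.497%, 0.504% and 0.461% in WT mice and 0.484%, 0.478% and 0.457% in Mc4r KO mice, where the groups overlapped. After scaling to that sum, the median over all genes shifted to -0.19 and that of the proteasome genes to -0.07, so that they lay 0.12 above all genes, against 0.13 in the scaling used here. An unadjusted p under 0.05 was then reached by Psmb5 on the higher side (2.04%, against 4.95% of all genes) and by 5 genes on the lower side (10.2%, against 18.1%). In that scaling 3 genes separated higher and 8 lower, where 6.42% and 22.3% of all genes did. Quantile normalization gave medians of -0.01 for the proteasome genes and for all genes, with 4 genes higher and 3 lower at an unadjusted p under 0.05 (8.16% and 6.12%, against 9.96% and 9.34% of all genes). After it, 8 of the 49 genes separated higher and 5 lower, where 12.58% and 12.35% of all genes did. The log2 fold change of Psmb5 kept its sign under both, at 0.47 and 0.46, as did those of Psmb6 and Psmb7, at 0.20 and 0.13 after the first and 0.26 and 0.20 after the second.

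The place of WT replicate 3 and the GC content of the transcripts moved with these results. Of the 9 genes with an unadjusted p under 0.05, 7 were higher in WT replicate 3 than in either of the other WT mice, and the gap to their mean was 0.66 on the log2 scale for Psmg3 and 0.47 for Psmb5. Without WT replicate 3, 18 proteasome genes had an unadjusted p under 0.05, 15 of them higher in Mc4r KO mice (30.6%, against 15.6% of all genes) and 3 lower (6.12%, against 12.6%). Over all genes, the share at an unadjusted p under 0.05 was 28.2% without that library and 20.9% with it. In all, 726 were called without WT replicate 3, against 7 to 14 without any other library. Over the 11288 genes whose mean FPKM reached 1, the log2 fold change rose with the GC content of the transcript (Spearman's rho 0.417 across genes, which share the same 6 libraries). The median GC content was 49.7% for the proteasome genes and 49.5% for all genes tested, and 52.2% for the 9 genes with an unadjusted p under 0.05. After the trend with GC content was taken out of each library, 14 proteasome genes were higher (28.6%, against 10.1% of all genes) and 3 lower (6.12%, against 9.53%) at an unadjusted p under 0.05. The 14 included Psmb3 to Psmb7 and added Psma1, Psma2, Psma4 and Psma6, whereas Psmd3 and Psmd13 were no longer among them. The log2 fold change of Psmb5 was then 0.48, and that of Psmb7, with a GC content of 40.8%, was 0.50. The fit with the GC percentage of each library's clean reads gave smaller values, 0.31 for Psmb5 (unadjusted p 0.0543), 0.09 for Psmb6 (0.467), 0.06 for Psmb7 (0.664) and 0.30 for Psmg3 (0.531). In that fit 5 proteasome genes were higher at an unadjusted p under 0.05 (10.2%, against 6.14% of all genes), with Psmc4 at 0.35. The part of library quality, of cell makeup and of GC content in these differences was not tested beyond these values.

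**Figure D5:**
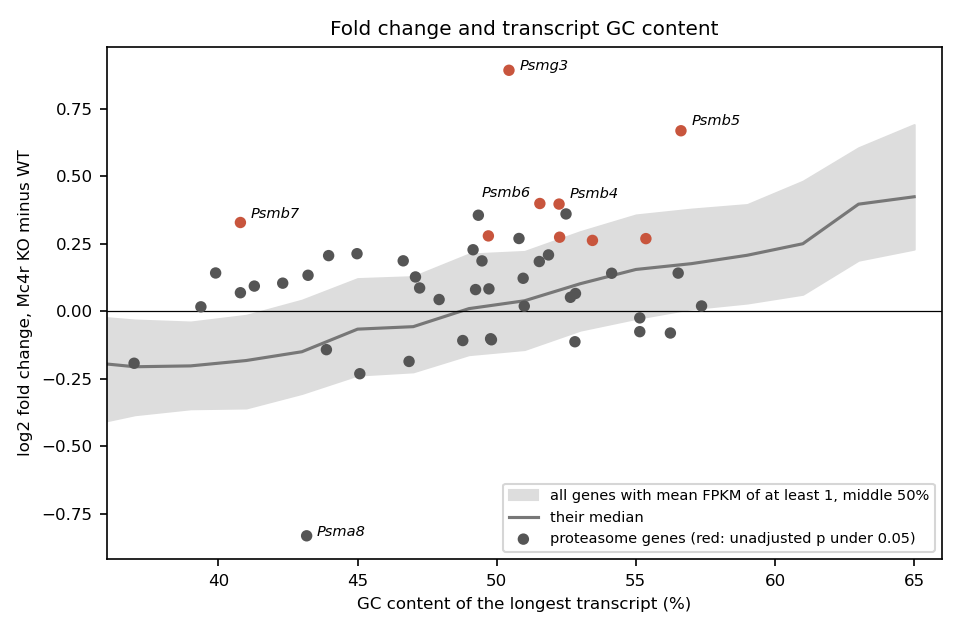
Log2 fold change (Mc4r KO minus WT) against the GC content of the transcript in percent. Points are the 49 tested proteasome genes, red where the unadjusted p was under 0.05, the line is the median over all genes of a mean FPKM from 1 upwards in bins of GC content and the band their middle 50%. The line climbs from below 0 to above 0 as GC content grows, and Psmb5 and Psmb7 lie above the band at high and at low GC content.

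Genes that control proteasome transcription were also followed, with 0 of 8 called. Nfe2l1, the factor that induces proteasome genes when proteasome activity falls short, had an FPKM of 73.5, 87.3 and 96.2 in WT mice and 106, 102 and 118 in Mc4r KO mice. The groups did not overlap, and the log2 fold change of 0.35 had an SE of 0.12 and an adjusted p of 0.165. Nfe2l2, or Nrf2, the factor of the oxidative stress response, went the other way, with an FPKM of 22.6, 23.0 and 19.4 in WT mice and 15.7, 16.1 and 15.6 in Mc4r KO mice. Its log2 fold change was -0.45 with an SE of 0.09 and an adjusted p of 0.0766. Mafg, a small Maf partner of both, had a log2 fold change of 0.38 with an SE of 0.11 and an adjusted p of 0.131. Keap1, the adaptor that hands Nfe2l2 to the proteasome, was the fourth gene of this list with an unadjusted p under 0.05, at 0.52, and is named after its values were seen. Ddi2 and Ngly1, which activate Nfe2l1 by cleavage and by removal of sugars, had log2 fold changes of -0.05 each. Nfe2l1, Mafg and Keap1 have a high transcript GC content, at 54.5%, 54.9% and 58.0%. With the trend with GC content taken out, their log2 fold changes were 0.21, 0.23 and 0.31, and that of Nfe2l2 was -0.40.

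The other genes of the pathway showed 0 calls as well. Among 10 cofactors of the proteasome outside the Psm names, 2 were higher at an unadjusted p under 0.05 and 0 lower. These were the ubiquitin receptor Adrm1 with a log2 fold change of 0.38 (adjusted p 0.151) and the small 19S subunit Sem1 with 0.47 (adjusted p 0.182), while the third by p, the deubiquitinase Uchl5, had -0.34 (adjusted p 0.332). Among 6 genes of ubiquitin and its activating enzymes, 2 were higher and 0 lower, the ubiquitin fusion gene Rps27a with 0.49 (adjusted p 0.123) and the activating enzyme Uba1 with 0.22 (adjusted p 0.212), while Uba6 had -0.27. Of 10 tested genes for shuttling factors and the segregase Vcp, 0 reached an unadjusted p under 0.05, and the smallest p-values belonged to Ubqln2 with -0.26, Vcp with 0.19 and Ufd1 with -0.16. Of 8 genes of the interferon response and peptide loading 0 did, with Erap1 at -0.30, Tap2 at 0.21 and Tap1 at 0.15. The median log2 fold change of the 8 was 0.00, against 0.27 for the genes of transcriptional control and 0.09 for the cofactors. The trend with GC content was not taken out of these medians, so that their order holds for the main fit only. Its removal lowered Nfe2l1 and Keap1, as given above, and moved the cofactors Sem1 to 0.60 and Adrm1 to 0.21.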

How the data were processed

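RNA from 6 hearts was sequenced, 3 per group, 1 library per mouse. The authors aligned the reads with HISAT2 (version 2.0.5; mm10 in the submitters' processing notes), counted them with featureCounts and deposited FPKM per gene and library. Multiplied by gene length, 100% of the FPKM were whole multiples of a step fixed per library (tolerance 0.1 read), which gave back the reads. All columns of library values were matched to a sample.

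The proteasome genes and all gene lists were chosen with earlier results of these data known. FPKM were scaled by median-of-ratios factors (1 in each library) and tested with limma (version 3.58.1, R 4.3.3) on log2(FPKM + 0.1) with the empirical Bayes trend, no covariate and Benjamini-Hochberg adjustment. The script was tested on simulated data. The p-values measure the spread between these mice only. Values in every library are given for the 6 catalytic β subunits, for genes with an unadjusted p under 0.05, and for the genes of highest and lowest mean, and the other lists by their calls or else their 3 smallest p-values. GENCODE M21 (99.8% of identifiers found) gave transcript GC content, shared words of 50 bases and overlapping exons. Figures used Python 3.11.15 and matplotlib 3.10.9.

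Alternatives were other pseudocounts (1 and 0.01), filters, scalings and variance models, array weights, a replicate block, a GC covariate, limma voom on recovered reads, protein-coding genes only, each library left out, and a membership without Psmc3ip, Psma8 and Psmb11. Removal of the GC content trend (lowess, span 0.3) was chosen after seeing the data. The authors' own comparisons were not used. The result of 1 gene outside the proteasome names is not reported here.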

Additional observations from a re-analysis of the deposited data

How the results depend on the processing

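Under 21 other fits, no proteasome gene was called except Psmb5 without WT replicate 3. Among these fits, that on the FPKM as deposited equals the main fit, as the scaling factors were 1 in each library. An adjusted p under 0.05 with a log2 fold change too small for a call was reached by Psmb5 (0.0310), Psmb6 (0.0443) and Psmb4 (0.0435) with array weights, by Psmb5 (0.0472) with protein-coding genes only, and by Psmb4, Psmb6, Psmb7, Psme2b and Psmd1 without WT replicate 3. Leaving out each library in turn gave 0 to 1 proteasome genes called, 5 to 18 with an unadjusted p under 0.05 and medians from 0.080 to 0.11, against 0.12. The number with an unadjusted p under 0.05 was 9 with all libraries, where 20.9% of all genes reached it. It was 5 without WT replicate 2 (all genes 15.9%), 5 without Mc4r KO replicate 2 (13.9%) and 18 without WT replicate 3 (28.2%). With array weights it was 16 (26.5%), with the GC percentage of each library's clean reads in the fit 5 (11.3%), and with the GC content trend removed 17 (19.6%). The number without overlap between the groups was 21 in the main scaling, 19 of them higher, where 14.1% of all genes separated higher and 12.4% lower. It was 11 when libraries were scaled by their non-mitochondrial sum, 3 of them higher (all genes 6.42% and 22.3%). After quantile normalization it was 13, 8 of them higher (12.58% and 12.35%). The median log2 fold change was -0.072 and -0.012 in these scalings, 0.087 with array weights and 0.16 with limma voom, and the summed FPKM differed by -0.044 on the log2 scale in the non-mitochondrial scaling. Among the 6 catalytic subunits and the 9 genes with an unadjusted p under 0.05, the sign changed in these fits only for immunoproteasome genes: Psmb8 had -0.60, Psmb9 -0.58 and Psmb10 -0.30 with that GC term, Psmb9 -0.045 and Psmb10 -0.053 in the non-mitochondrial scaling, Psmb10 -0.045 with the GC content trend removed, and Psmb9 from -0.13 (without Mc4r KO replicate 1) through -0.027 (without WT replicate 2) to 0.44 (without WT replicate 3). The cause was not tested.

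The labels number the mice 1 to 3 in both groups. Same-numbered mice did not deviate together (correlations of -0.0575, -0.0112 and -0.0461 over genes), and mice of unlike numbers had -0.0154 to 0.0615. No pairing by number was thus seen, although such correlations among so few mice cannot exclude one. With the replicate block, 8 proteasome genes had an unadjusted p under 0.05, and 11 genes were called over all genes, against 83. Depth limits Psma8, Psmg3 and Psmc3ip most, which held 3 to 47 reads per library.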
